A study of Homo sapiens with 6 samples.

Results

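The 10 genes LIF, LIFR, OSMR, IL6ST, IL6R, STAT3, SOCS1, SOCS3, PIM1 and PIM2 of the interleukin-6 cytokine family and of the signalling route that runs from its receptors to the transcription factor STAT3 were followed in PC9ER cells. They were taken by symbol, and all 10 were found among the 15376 coding genes measured. PC9ER is a line of human non-small cell lung cancer; the submitters call it EGFR-driven and gefitinib-resistant, EGFR being a growth factor receptor kinase and gefitinib its inhibitor. Messenger RNA was read by RNA sequencing in 3 libraries from gefitinib cells and 3 from control cells. Gefitinib cells received 1 µM of the drug for the last 6 h, and control cells received the vehicle DMSO. A single protocol covers all 6 libraries, with growth in medium holding 10% fetal calf serum, 72 h of DMSO where no Notch inhibitor was used, and withdrawal of serum overnight. It does not state whether control cells also went without serum, so a serum difference cannot be told apart from the drug in any comparison here. All libraries come from 1 cell line, and nothing in the labels says that replicates were separate cultures. A p-value here therefore reflects the spread among 6 libraries, which may be technical.

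Cytokines of this family signal through receptor complexes built around the shared chain gp130, the product of IL6ST. Interleukin-6 first binds IL6R, which then pairs with gp130, whereas leukaemia inhibitory factor, the product of LIF, joins LIFR to gp130, and oncostatin M joins OSMR or LIFR to gp130. Janus kinases bound to these chains phosphorylate STAT3, which moves to the nucleus and switches on its targets, among them the SOCS genes, whose products shut the receptor down, and the PIM genes, which encode survival kinases. In lung cancers driven by EGFR this route is known as one that can stay active when EGFR is inhibited.

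The gefitinib libraries held 13674237 to 38581498 reads in coding genes and the control libraries 16211544 to 25639050. Values are normalized reads, which the authors scaled to a total of 18085800 per library. Epithelial markers were abundant in every library. The summed level per exon length of EPCAM, KRT8, KRT18, KRT19 and CDH1 was 3514 to 3888 TPM in gefitinib libraries and 4337 to 6291 TPM in control libraries, where TPM stands for normalized reads per exon kilobase, rescaled to the same sum over coding genes in each library. Lung markers NAPSA and SFTPB together reached at most 2.01 and 2.10 TPM in gefitinib and control libraries, and NKX2-1 was not analysed here. The sum of 5 blood markers was 3.61 to 4.51 TPM in gefitinib and 2.42 to 3.92 TPM in control libraries, and 5 fibroblast markers of 8 summed to 1.16 to 1.595 against 0.783 to 1.80. The 3 endothelial markers summed to 4.63 to 5.40 TPM in gefitinib libraries and 36.7 to 43.6 in control libraries. Most of this came from PECAM1, at 3.65 and 37.8 TPM, while CDH5 stood at 1.27 and 2.00 and VWF at 0.115 and 0.201. The part of these shifts in the results below was not tested.

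Of the 10 genes, 4 rose with gefitinib, 3 fell and 3 did not pass the test (limma adjusted p under 0.05 over 15229 genes). Over all genes tested, 51.1% were called, 28.3% higher and 22.8% lower, so being called is common in this comparison and the count is not particular to these genes. IL6R, LIFR, SOCS1 and PIM2 rose and LIF, OSMR and IL6ST fell, while STAT3, SOCS3 and PIM1 were not called. By edgeR on the recovered reads 4 rose and 4 fell, PIM1 being the addition, where 61.3% of all genes were called. Gefitinib and control values were apart without overlap for 7 of these genes, against 58.0% of all genes tested. The median log2 difference of the 10 genes was -0.05, against 0.10 over all genes. In these bulk libraries, fewer cells with a transcript and less of it per cell cannot be told apart.

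**Figure D1:**
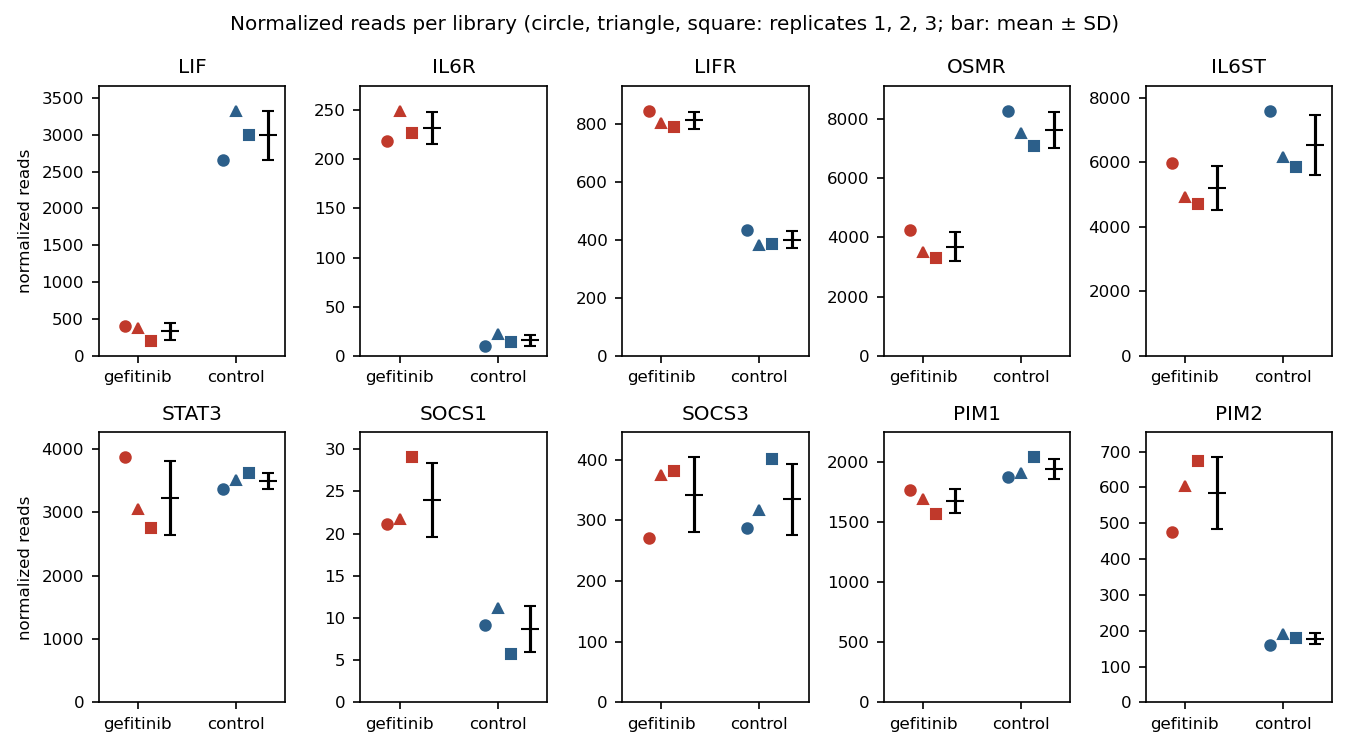
Normalized reads of the 10 genes in each gefitinib and control library, 1 panel per gene with its own linear axis from 0; symbols mark replicates 1, 2 and 3, and the bar beside them is the mean ± SD (n = 3). LIF sits at 205 to 410 in gefitinib and 2660 to 3327 in control libraries, IL6R at 218 to 249 and 10.6 to 22.3, and the groups overlap for IL6ST, STAT3 and SOCS3.

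Promoter sequences were looked at for the receptor chains, because these members moved in opposite directions while serving the same shared chain. RefSeq promoter windows (GRCh38.p14, 250 bases before to 50 after a start site) were matched by symbol for 9 of the 10 genes, in 12 windows; LIF had no entry. The search covered the STAT motif TTCNNNGAA and the AP-1 motif TGANTCA, each its own reverse complement, and the forkhead motif GTAAACA on both strands. The STAT motif occurs in 7.66%, the AP-1 motif in 7.71% and the forkhead motif in 3.42% of all 35116 windows. Among the 12 windows the STAT motif was found in 2, both of LIFR, the AP-1 motif in the windows of IL6R and OSMR, and the forkhead motif in a window of LIFR. The third window of LIFR and the windows of IL6ST, STAT3, SOCS1, SOCS3, PIM1 and PIM2 held none of these letters. The outermost GENCODE start of SOCS3 (78360077) and that of LIFR (38608354) lie in none of their windows. The 250 bases before those starts were not searched, so a missing match for SOCS3 does not cover them. The 4 windows with a match follow, 5′ to 3′ on the gene's strand, with the matched letters in capitals. IL6R is at chr1:154405093-154405392 (plus strand), LIFR at chr5:38595356-38595655 and chr5:38557418-38557717 (minus strand) and OSMR at chr5:38845762-38846061 (plus strand).
IL6R promoter, AP-1 motif: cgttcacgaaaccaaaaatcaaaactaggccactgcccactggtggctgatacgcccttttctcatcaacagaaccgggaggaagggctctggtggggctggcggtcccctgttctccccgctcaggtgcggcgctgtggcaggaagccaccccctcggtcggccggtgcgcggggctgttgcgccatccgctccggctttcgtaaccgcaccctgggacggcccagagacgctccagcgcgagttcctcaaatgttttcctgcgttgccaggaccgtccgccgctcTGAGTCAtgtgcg
LIFR promoter a, STAT motif: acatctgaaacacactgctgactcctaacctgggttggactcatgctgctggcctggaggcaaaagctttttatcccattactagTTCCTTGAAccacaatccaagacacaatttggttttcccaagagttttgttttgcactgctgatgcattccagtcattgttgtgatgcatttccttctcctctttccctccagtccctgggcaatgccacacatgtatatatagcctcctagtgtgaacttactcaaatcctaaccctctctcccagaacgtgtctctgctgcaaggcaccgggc
LIFR promoter b, STAT motif then forkhead motif: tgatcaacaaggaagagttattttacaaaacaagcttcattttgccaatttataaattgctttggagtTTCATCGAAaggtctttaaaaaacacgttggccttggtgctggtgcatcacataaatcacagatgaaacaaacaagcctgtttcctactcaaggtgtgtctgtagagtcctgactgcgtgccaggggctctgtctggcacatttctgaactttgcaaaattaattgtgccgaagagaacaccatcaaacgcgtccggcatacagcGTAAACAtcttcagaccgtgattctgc
OSMR promoter, AP-1 motif: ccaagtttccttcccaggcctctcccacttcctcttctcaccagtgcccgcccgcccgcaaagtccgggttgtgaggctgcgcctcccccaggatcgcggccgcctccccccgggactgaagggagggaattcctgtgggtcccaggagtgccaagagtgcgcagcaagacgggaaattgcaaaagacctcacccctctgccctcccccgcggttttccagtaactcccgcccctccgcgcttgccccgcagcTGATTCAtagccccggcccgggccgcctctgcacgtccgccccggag
Taking the start site as base 0, the STAT match begins at -165 in LIFR promoter a and at -182 in LIFR promoter b, whose forkhead match begins at 23. The AP-1 matches begin at 37 in IL6R and at 3 in OSMR, inside the transcribed part. A match describes letters only. The letters matched to TGANTCA were TGAGTCA in the window of IL6R, which rose, and TGATTCA in that of OSMR, which fell. They differ at N, which stood for any base in the search, and binding of AP-1 to either was not tested.

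LIF encodes the cytokine that gave the LIF receptor its name (ENSG00000128342, chromosome 22, 30240447 to 30246851, minus strand, GRCh38). It had 410, 381 and 205 normalized reads in gefitinib libraries 1, 2 and 3, against 2660, 3327 and 2991 in control libraries 1, 2 and 3. The lowest control library stood far above the highest gefitinib library, and gefitinib library 3 was the lowest of all. The control mean was 9.01 times the gefitinib mean. LIF fell by 3.22 ± 0.23 (SE) on the log2(value + 1) scale (limma adjusted p = 6.92e-06), and 62 of 15229 genes had a difference this low or lower. Exons of LIF share 267 of 3969 bases with antisense genes on the other strand, and no source used here gives the strand setting of the counting.

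The other cytokine genes of the family that moved did so in both directions. Of the 9 ligand genes tested 4 rose, 2 fell and 3 did not pass by limma, which called 28.3% of all genes higher and 22.8% lower. Their median log2 difference was 0.09 against 0.10 over all genes. After its count filter edgeR tested 5 of them and called 2 higher and 2 lower, where it called 30.5% of 12167 genes higher and 30.8% lower. Without gefitinib replicate 2 the limma count of higher ligand genes was 2 in place of 4, with CNTF at an adjusted p of 0.0608. EBI3, which rests on few reads, lost its call whichever library was left out. CLCF1, which encodes a ligand of the CNTF receptor, fell as LIF did, with 86.0, 97.6 and 83.4 normalized reads in gefitinib libraries against 250.4, 295 and 278 in control libraries (log2 difference -1.61 ± 0.16, limma adjusted p = 4.72e-05). IL11, an interleukin that signals through IL11RA and gp130, rose, with 75.4, 86.8 and 68.0 against 22.6, 40.2 and 15.4 (1.62 ± 0.35, limma adjusted p = 0.00385). OSM, the oncostatin M gene, lies on the same strand of chromosome 22 as LIF with 15977 bases between them, and went the other way. OSM had 3, 5 and 14 reads in gefitinib libraries and no read in any control library, which makes it at least 6.15-fold higher when control is set at 3 reads over the group. That bound covers counting error only, and at 0.548 TPM in gefitinib cells OSM stayed far below LIF. EBI3 had 4 reads in all gefitinib libraries and none in control libraries, at least 1.12-fold higher on the same floor. CNTF, a neurotrophic cytokine gene, was called higher at 0.78 ± 0.21 (limma adjusted p = 0.0114), and 732 of its 1894 exon bases are shared with the read-through gene ZFP91-CNTF, so its reads are of uncertain origin. IL6 itself had 1 read in gefitinib libraries and 8 in control libraries, a ratio of 0.105 once depth is taken into account (95% interval for counting error 0.00236 to 0.782; limma adjusted p = 0.276).

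The make-up of the ligand transcripts differed with the fall of LIF. Levels of different genes are set side by side only per exon length, in TPM. LIF averaged 19.5 ± 6.84 TPM in gefitinib and 182 ± 20.8 in control libraries (SD, n = 3). It made up 33.7% ± 7.22 of the summed level of the 9 ligand genes in gefitinib libraries and 78.4% ± 1.08 in control libraries. IL11 took 11.9% ± 0.962 and 1.00% ± 0.417, and CLCF1 18.7% ± 2.15 and 14.5% ± 0.306. CNTF, whose reads are of uncertain origin, was the next after LIF in gefitinib libraries, at 23.5% ± 1.79 against 3.45% ± 0.426 in control libraries. CTF1, the cardiotrophin-1 gene, made up 10.8% ± 2.92 and 2.58% ± 0.795, at levels of 5.95 ± 0.832 and 5.98 ± 2.00 TPM. CLCF1 fell in level but took a larger share.

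**Figure D2:**
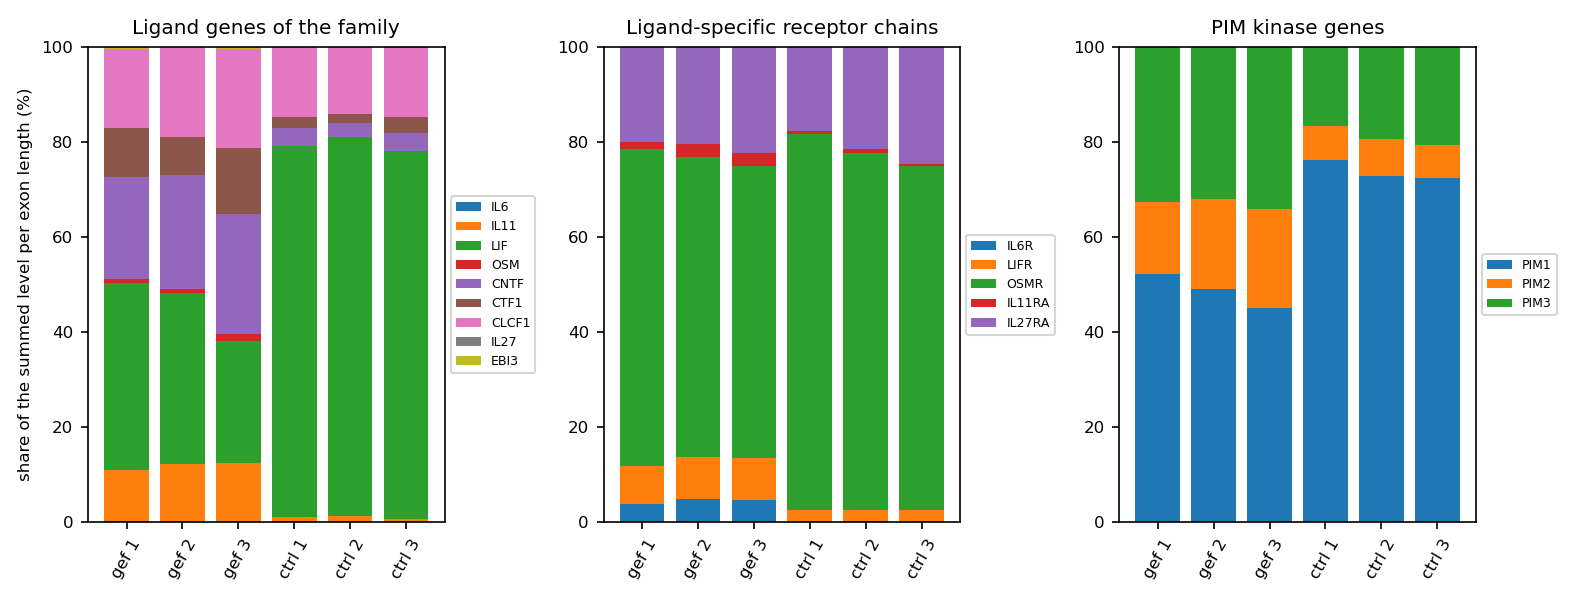
Share (%) of each gene in the summed level per exon length of 9 ligand genes, 5 receptor chains and the 3 PIM kinase genes. The chains, titled ligand-specific, are those other than IL6ST, although LIFR serves both LIF and oncostatin M. Gefitinib libraries stand left of control libraries in each panel. LIF takes 25.6% to 39.4% of the ligand sum in gefitinib and 77.5% to 79.6% in control libraries, OSMR is the largest receptor chain in all 6, and PIM1 takes 45.1% to 52.2% and 72.4% to 76.3% of the PIM sum.

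IL6R encodes the chain that binds interleukin-6 (ENSG00000160712, chromosome 1, 154405193 to 154469450, plus strand). It had 218, 249 and 227 normalized reads in gefitinib libraries against 10.6, 22.3 and 14.5 in control libraries, from 165, 276 and 484 reads against 15, 20 and 15 reads. The gefitinib libraries lay close together and all far above control. The gefitinib mean was 14.7 times the control mean. On the log2 scale IL6R rose by 3.85 ± 0.29 (limma adjusted p = 8.49e-06), and 55 of the 15229 genes had a difference this high or higher. No annotated gene shares its exons on either strand.

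LIFR encodes the chain that binds LIF (ENSG00000113594, chromosome 5, 38474963 to 38608354, minus strand). It had 845, 803 and 787 normalized reads in gefitinib libraries and 433, 383 and 385 in control libraries. The groups did not overlap and the spread within each was small. LIFR rose by 1.02 ± 0.10 (limma adjusted p = 4.63e-05), and the gefitinib mean was 2.03 times the control mean, so the receptor gene rose where its ligand gene LIF fell. Antisense exons of LIFR-AS1 cover 629 of its 11864 exon bases.

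OSMR encodes a chain that oncostatin M joins to gp130 (ENSG00000145623, chromosome 5, 38845858 to 38945596, plus strand), with 237503 bases between it and LIFR. It had 4242, 3507 and 3307 normalized reads in gefitinib libraries against 8273, 7502 and 7086 in control libraries. All gefitinib libraries were well below all control libraries. OSMR fell by 1.05 ± 0.11 (limma adjusted p = 4.40e-05). The neighbouring genes LIFR and OSMR thus differed in direction. Their log2 ratio, LIFR to OSMR, was -2.33, -2.12 and -2.07 in gefitinib libraries and -4.25, -4.29 and -4.20 in control libraries. The difference of 2.07 does not depend on library scaling beyond the added 1. The exact 2-sided permutation test gave p = 0.1, the smallest that 3 against 3 libraries allow. Since LIFR lay higher and OSMR lower without overlap, this p was fixed in advance and adds no support. Per exon length OSMR stood 7.49 ± 0.715 times above LIFR in gefitinib libraries and 31.5 ± 1.00 times in control libraries (SD, n = 3). Exons of RICTOR on the other strand cover 229 of the 7174 exon bases of OSMR.

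IL6ST encodes gp130, the chain that all these complexes share (ENSG00000134352, chromosome 5, 55935095 to 55994993, minus strand). It had 5981, 4930 and 4704 normalized reads in gefitinib libraries and 7606, 6164 and 5850 in control libraries. The groups overlap, since gefitinib library 1 lies above control library 3. IL6ST fell by 0.33 ± 0.12 (limma adjusted p = 0.0498), a call at the edge of the threshold. The call was lost without gefitinib replicate 2 (0.159), gefitinib replicate 3 (0.169), control replicate 1 (0.0824) or control replicate 2 (0.0784), over a range from 0.00368 to 0.169 in all alternatives, and edgeR gave 0.0251. A processed pseudogene of IL6ST is annotated on chromosome 17, and antisense exons cover 797 of its 9292 exon bases.

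The shared chain was abundant and the interleukin-6 chain scarce in both groups, and the gap was narrower with gefitinib. IL6ST averaged 130.2 ± 20.8 TPM per exon length in gefitinib and 169 ± 21.8 in control libraries, against 8.32 ± 0.489 and 0.590 ± 0.221 for IL6R (SD, n = 3). IL6ST exceeded IL6R 19.0, 13.7 and 14.4 times in gefitinib libraries and 499, 192 and 281 times in control libraries. The log2 ratio of IL6R to IL6ST differed by 4.18 (exact 2-sided permutation p = 0.1, the smallest possible). Since the gap between the groups in IL6R was wider than the whole spread of IL6ST, this p was fixed in advance and adds no support. The summed level of IL6R, LIFR and OSMR was 144 ± 20.3 TPM in gefitinib libraries and 264 ± 16.5 in control libraries, most of it OSMR. Of 6 receptor chain genes tested 3 rose and 3 fell, where 28.3% of all genes rose and 22.8% fell. Their median was 0.30 against 0.10 over all genes, and CNTFR was not analysed here. Beside the chains above, IL11RA rose by 0.92 ± 0.28 (limma adjusted p = 0.0207), with 744 of its 4271 exon bases shared with genes on the same strand, and IL27RA fell by 0.82 ± 0.12 (limma adjusted p = 0.000377). The IL11RA call was lost without gefitinib replicate 2 (0.0868), gefitinib replicate 3 (0.0820) or control replicate 3 (0.0591).

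**Figure D3:**
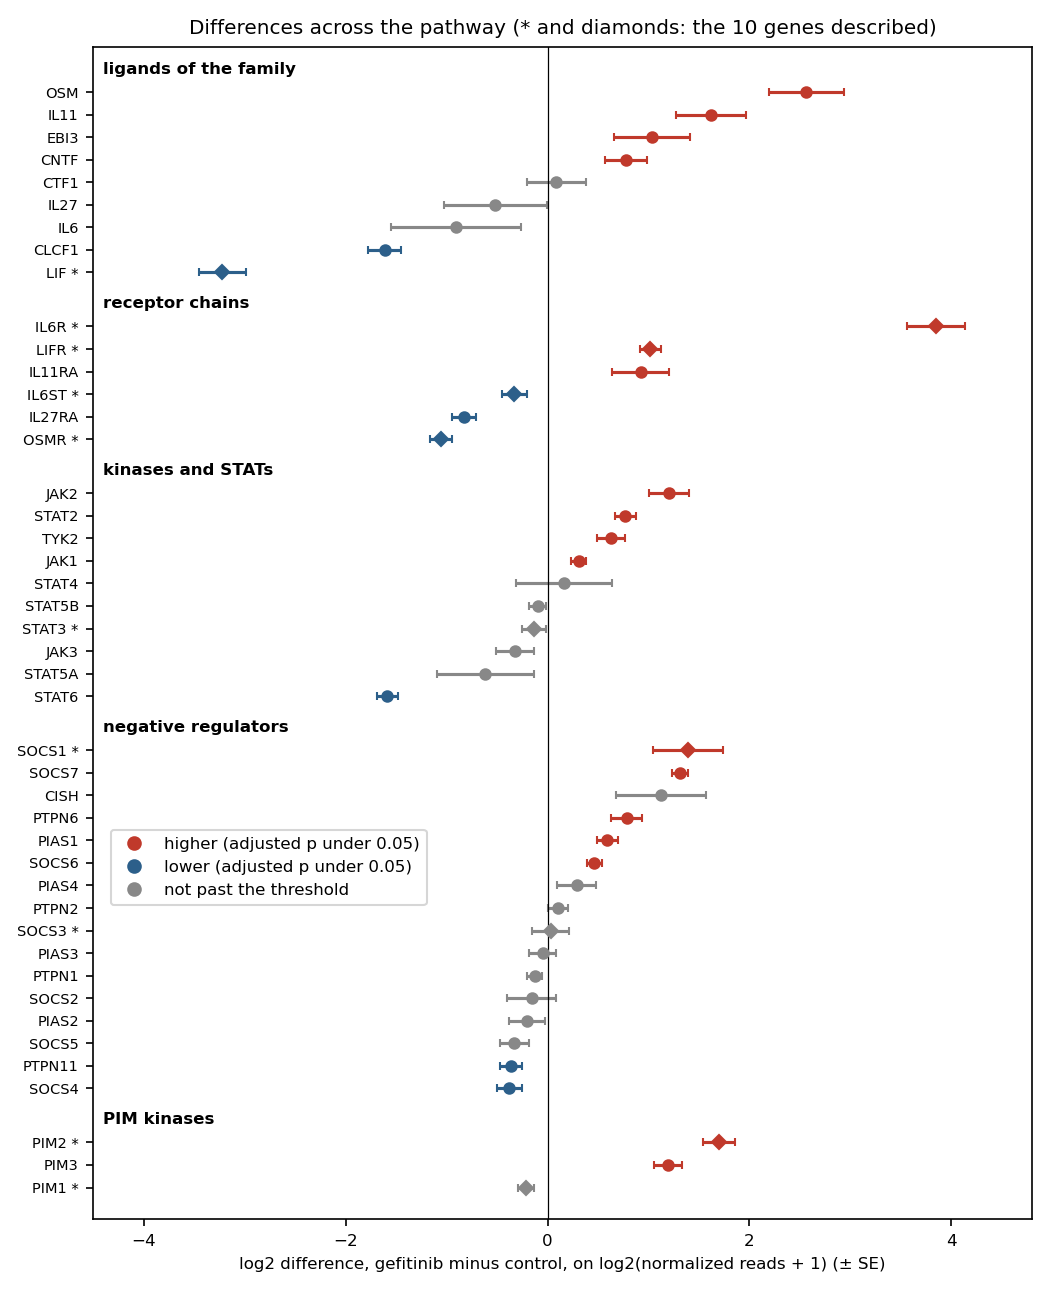
Log2 difference, gefitinib minus control on log2(normalized reads + 1), with its SE, for the tested ligand, receptor chain, kinase and STAT, negative regulator and PIM kinase genes; stars and diamonds mark the 10 genes, and colours the limma call. IL6R at 3.85 and LIF at -3.22 lie at opposite ends, and each functional group except the PIM kinases holds genes called in both directions.

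STAT3, the transcription factor that these receptors activate (ENSG00000168610, chromosome 17, 42313324 to 42388568, minus strand), had 3867, 3042 and 2749 normalized reads in gefitinib libraries and 3367, 3502 and 3608 in control libraries. Gefitinib library 1 was the highest of all and the other gefitinib libraries the lowest, so the groups overlap. The difference was -0.13 ± 0.12 (limma adjusted p = 0.392). Without gefitinib replicate 1 it was -0.27 and called (0.0335), over a range from 0.0335 to 0.874 in all alternatives. Per exon length STAT3 was at 85.0 ± 17.7 and 95.6 ± 5.07 TPM (SD, n = 3), and these data do not measure its phosphorylation.

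Around STAT3, 4 of 10 Janus kinase and STAT genes rose, 1 fell and 5 did not pass, with a median of 0.03, where 28.3% of all genes rose and 22.8% fell. Without gefitinib replicate 1 the count of lower genes was 2, STAT3 being the addition. The kinase genes JAK2, TYK2 and JAK1 rose, by 1.21 ± 0.20, 0.63 ± 0.14 and 0.31 ± 0.07 (limma adjusted p = 0.000802, 0.00479 and 0.00651). JAK2 averaged 220 ± 41.6 normalized reads in gefitinib and 94.0 ± 10.7 in control libraries (SD, n = 3). STAT2, an interferon mediator, also rose, by 0.77 ± 0.10. STAT6, which serves interleukin-4 and interleukin-13, fell by 1.59 ± 0.11 (limma adjusted p = 4.50e-06). STAT5A, the neighbour of STAT3 on chromosome 17 with 1380 bases between them, had 4.50 ± 1.83 and 7.96 ± 4.51 normalized reads and was not called (limma adjusted p = 0.317).

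SOCS1 and SOCS3 encode feedback inhibitors that bind Janus kinases and their receptors. SOCS1 (ENSG00000185338, chromosome 16, 11254405 to 11256200, minus strand) had 21.2, 21.7 and 29.1 normalized reads in gefitinib libraries and 9.17, 11.2 and 5.79 in control libraries. These rest on 16, 24 and 62 reads against 13, 10 and 6 reads, with no overlap between the groups. SOCS1 rose by 1.39 ± 0.34 (limma adjusted p = 0.00791), from a low level in both groups.

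SOCS3 (ENSG00000184557, chromosome 17, 78356778 to 78360077, minus strand) had 271, 375 and 382 normalized reads in gefitinib libraries and 287, 317 and 401 in control libraries. The libraries of both groups spread over the same range. The difference was 0.03 ± 0.18 (limma adjusted p = 0.904), and its sign turned in 8 of 17 alternatives, with no call in any of them. The log2 ratio of SOCS3 to SOCS1 was 3.62, 4.05 and 3.67 in gefitinib and 4.82, 4.71 and 5.89 in control libraries. That is a difference of -1.36 (exact 2-sided permutation p = 0.1, the smallest possible). Since the gap between the groups in SOCS1 was, as a ratio, wider than the whole spread of SOCS3, this p was fixed in advance and adds no support. Per exon length SOCS3 still exceeded SOCS1 9.47 ± 1.64 times in gefitinib libraries and 28.2 ± 14.9 times in control libraries.

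Of the 16 negative regulators tested 5 rose, 2 fell and 9 did not pass, with a median of 0.07, and edgeR called 6 higher and 3 lower. Over all genes 28.3% were called higher and 22.8% lower by limma and 61.3% in either direction by edgeR, so these counts are near the background. SOCS7, a further member of the SOCS family, rose by 1.31 ± 0.08 (limma adjusted p = 2.48e-06), with 2932 ± 128 normalized reads in gefitinib and 1180 ± 14.8 in control libraries (SD, n = 3). SOCS6 rose by 0.46 ± 0.07, and SOCS4 fell by 0.38 ± 0.12 (limma adjusted p = 0.0276). By level per exon length SOCS7 made up 33.4% ± 1.77 of 8 SOCS family genes in gefitinib libraries and 17.6% ± 0.582 in control libraries, while SOCS3 made up 12.3% ± 2.07 and 15.8% ± 2.92 and SOCS1 1.31% ± 0.248 and 0.624% ± 0.201. Among the others PTPN6, the phosphatase gene for SHP-1, rose by 0.78 ± 0.15 and PTPN11, the gene for SHP-2, which also carries growth factor signals, fell by 0.36 ± 0.11 (limma adjusted p = 0.00214 and 0.0202). PIAS1, which encodes a SUMO ligase that restrains STAT factors, was called higher at 0.59, but 6193 of its 10776 exon bases are shared with genes on the other strand. The 2 calls of lower genes became 0 without gefitinib replicate 3 or without control replicate 2, and 1 without gefitinib replicate 2. SOCS4 lost its call without gefitinib replicate 1 (0.0956), gefitinib replicate 3 (0.0534) or control replicate 2 (0.0755), and PTPN11 without gefitinib replicate 2 (0.0921), gefitinib replicate 3 (0.0806) or control replicate 2 (0.0572).

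The PIM kinase genes encode serine/threonine kinases with no regulatory domain, whose activity follows the amount of protein made. PIM2 (ENSG00000102096, chromosome X, 48913182 to 48919024, minus strand) had 476, 605 and 674 normalized reads in gefitinib libraries against 162, 191 and 181 in control libraries. The lowest gefitinib library was above every control library. PIM2 rose by 1.70 ± 0.16 (limma adjusted p = 2.80e-05), and the gefitinib mean was 3.29 times the control mean.

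PIM1 (ENSG00000137193, chromosome 6, 37170203 to 37175426, plus strand) had 1772, 1694 and 1574 normalized reads in gefitinib libraries and 1883, 1909 and 2045 in control libraries. The groups did not overlap, but the gap was small. The difference was -0.21 ± 0.08 (limma adjusted p = 0.0575), which missed the threshold. It was called lower in 9 of 17 alternatives, among them TMM factors (0.0239), edgeR (0.0216), and without gefitinib replicate 1 (0.0473) or control replicate 1 (0.0229), over a range from 0.0189 to 0.198.

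PIM3, the remaining member of that kinase family, rose like PIM2, by 1.19 ± 0.14 (limma adjusted p = 9.18e-05), with 915, 910 and 986 normalized reads in gefitinib and 339, 419 and 483 in control libraries. The log2 ratio of PIM2 to PIM1 was -1.89, -1.48 and -1.22 in gefitinib libraries and -3.53, -3.32 and -3.50 in control libraries. That is a difference of 1.91 (exact 2-sided permutation p = 0.1, the smallest possible). Since PIM2 lay higher and PIM1 lower without overlap, this p too was fixed in advance and adds no support. Per exon length PIM1 made up 48.8% ± 3.60 of the 3 genes in gefitinib libraries and 73.9% ± 2.14 in control libraries, PIM2 18.3% ± 2.88 and 7.27% ± 0.509, and PIM3 32.9% ± 1.13 and 18.9% ± 2.06 (SD, n = 3). Their summed level was 268 ± 3.67 TPM in gefitinib and 214 ± 18.6 in control libraries.

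**Figure D4:**
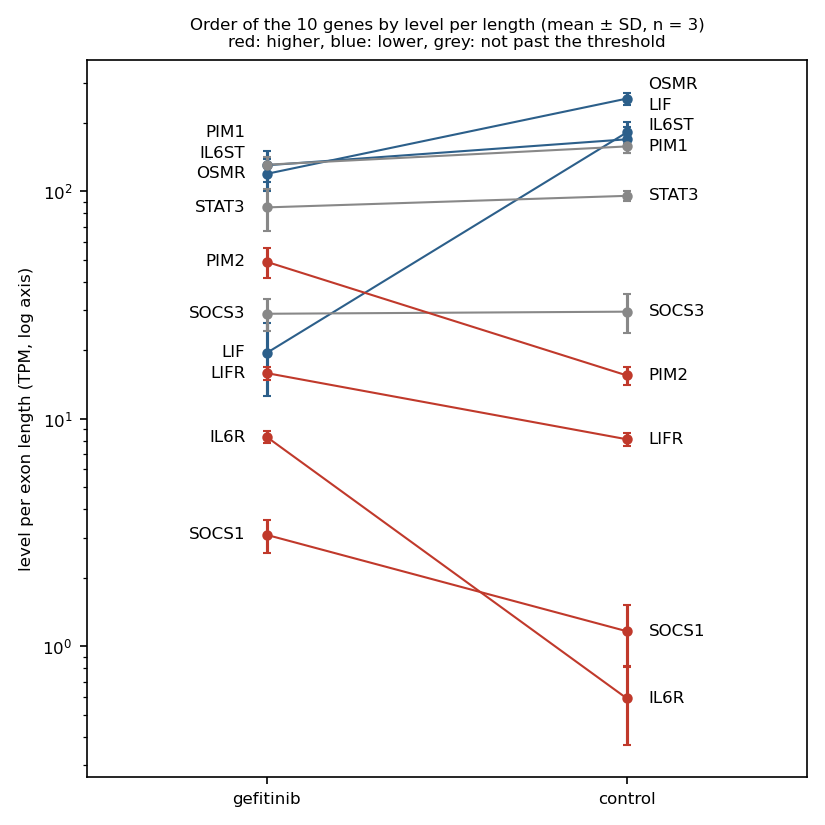
Level per exon length (TPM, log axis) of the 10 genes in gefitinib (left) and control (right) libraries, mean ± SD (n = 3), with lines coloured by the limma call. LIF is the 7th of the 10 genes in gefitinib and the 2nd in control libraries, PIM2 the 5th and the 7th, and SOCS3 the 6th in both.

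Ordered by level per exon length in gefitinib libraries, PIM1 (131 ± 11.2 TPM), IL6ST (130.2 ± 20.8) and OSMR (119 ± 19.4) had overlapping ranges of mean ± SD. STAT3 (85.0 ± 17.7) followed, with a range that overlapped that of OSMR. PIM2 (48.97 ± 7.18), SOCS3 (28.97 ± 4.56), LIF (19.5 ± 6.84) and LIFR (15.9 ± 1.02) came next. The ranges of SOCS3 and LIF overlapped, and LIF and LIFR were within the spread of LIF. IL6R (8.32 ± 0.489) and SOCS1 (3.09 ± 0.508) were lowest. In control libraries the order was OSMR (256 ± 16.2), LIF (182 ± 20.8), IL6ST (169 ± 21.8), PIM1 (158 ± 10.2), STAT3 (95.6 ± 5.07), SOCS3 (29.6 ± 5.81), PIM2 (15.5 ± 1.40), LIFR (8.13 ± 0.496), SOCS1 (1.16 ± 0.348) and IL6R (0.590 ± 0.221). The ranges of mean ± SD of LIF, IL6ST and PIM1 overlapped there, although the means of LIF and PIM1 each lay outside the other's range. LIF differed most in place, standing 7th in gefitinib and 2nd in control libraries, and IL6R stood above SOCS1 in gefitinib libraries and below it in control libraries.

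Genes known from other work as STAT3 targets did not follow 1 direction. Of 22 tested 7 rose, 12 fell and 3 did not pass, with a median of -0.49 against 0.10 over all genes, of which 28.3% rose and 22.8% fell, and of 20 tested by edgeR 8 were higher and 10 lower, where it called 30.5% of all genes higher and 30.8% lower. Several of these genes also answer to other factors, such as growth factor and NF-kappa-B signalling. Among those that fell, BCL3, an I-kappa-B family coactivator gene, had 33.03 ± 3.75 normalized reads in gefitinib and 129.8 ± 25.6 in control libraries (SD, n = 3; -1.93 ± 0.24 on the log2 scale). ICAM1, an adhesion molecule gene, fell by 1.53 ± 0.20, and SBNO2, a corepressor gene induced by interleukin-10 through STAT3, by 1.53 ± 0.25. HIF1A, the hypoxia factor gene, fell by 0.86 ± 0.08. Among those that rose, FOS, an AP-1 subunit gene, had 2489 ± 437 normalized reads in gefitinib and 406 ± 32.4 in control libraries (2.60 ± 0.13). ZFP36, which encodes an mRNA decay factor, had 785 ± 35.7 and 355 ± 17.5 normalized reads (1.14 ± 0.10). JUNB, which encodes another AP-1 subunit, rose by 1.08 ± 0.24, LCN2, the lipocalin-2 gene, by 0.48 ± 0.10, and CEBPD, a transcription factor gene of the acute phase, by 1.63 ± 0.36 from a low level. CEBPD had 18.5, 24.4 and 29.1 normalized reads in gefitinib libraries and 5.64, 5.58 and 10.6 in control libraries. MCL1, a survival gene of the BCL2 family, had 4452 ± 525 and 4866 ± 525 and was not called (limma adjusted p = 0.365). Genes on the other strand share 876 of 3706 exon bases of ICAM1, 259 of 1820 of JUNB and 117 of 5151 of HIF1A.

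Genes with the pattern most like that of 3 members were sought over the 6 libraries. The measure was the root mean square distance between log2 values centred on each gene's own mean. Compared were 9950 genes with a mean of 100 normalized reads or more, leaving out all genes of the member, pathway and marker lists. Nearest to LIF were HCAR2 (distance 0.161), WNT7A (0.172) and GRHL3 (0.231), with log2 differences of -3.39, -3.15 and -2.96. WNT7A, a Wnt ligand gene, had 103 ± 33.8 normalized reads in gefitinib and 908 ± 226 in control libraries (SD, n = 3). Nearest to IL6R were AVIL (0.256), SERTAD1 (0.281) and DSTYK (0.293), with differences of 3.86, 3.40 and 3.60. Nearest to PIM2 were KIAA1161 (0.0473), SKI (0.0769) and IL1R1 (0.0773), with differences of 1.69, 1.77 and 1.59. SKI, a repressor gene of TGF-beta signalling, had 2813 ± 340 and 820 ± 74.4, and IL1R1, the interleukin-1 receptor gene, 377 ± 80.2 and 123 ± 8.63.

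**Figure D5:**
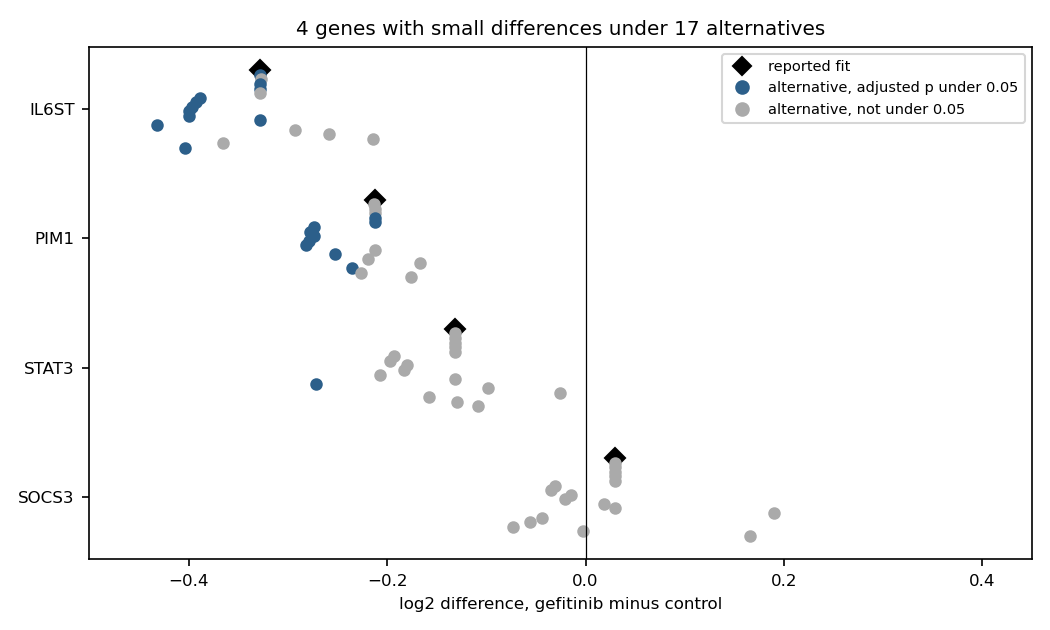
Log2 difference (gefitinib minus control) of IL6ST, PIM1, STAT3 and SOCS3 in the reported fit (diamond) and in 17 alternatives (circles, blue where the adjusted p is under 0.05). IL6ST and PIM1 lie on both sides of the threshold, STAT3 is called without gefitinib replicate 1 alone among the 17, and SOCS3 lies between -0.07 and 0.19 with no call.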

How the data were processed

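RNA sequencing of 6 libraries was deposited as a table of coding genes whose values are a never-negative signal: read counts that the authors divided by 1 factor per library, as the equal column totals show. STAR, HTSeq and GRCh38 are named without versions in the submitters' processing notes. Whole reads were recovered for 100% of values above 0 (tolerance 0.01 read), and edgeR on these called 3707 genes higher and 3752 lower of 12167. Another table deposited by the authors gave only gene IDs and each gene's position; its 6 per-sample columns match no label and were not used. Coordinates and exon lengths are from GENCODE release 29.

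Libraries were grouped by title. The test was limma 3.58.1 with a mean-variance trend, run in R 4.3.3 on log2(value + 1). It was 2-sided, and p-values were adjusted by Benjamini-Hochberg over the 15229 genes with reads (threshold 0.05); ratios were tested with exact permutation over libraries (scipy 1.17.1). The log2 scale with 1 added understates changes of low genes. The alternatives were pseudocounts of 0.5 and 5, filters on low values, TMM factors, DESeq2 size factors, edgeR 4.0.16, DESeq2 1.42.0 and limma-voom on recovered reads, a replicate block, and leaving out each library. The test was tried on simulated data. Libraries within a group differed by more than sampling noise in every pair. The members and lists were chosen with earlier results of these data known, and some list genes are not reported here. The genes named are all members, genes of each list that passed the test, and the 3 nearest genes to LIF, IL6R and PIM2; most uncalled list genes are only counted, and the uncalled MCL1, STAT5A, IL6, CTF1, STAT4 and PIAS3 were named after their values were seen. DESeq2's counts were 3732 higher and 3761 lower.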

Additional observations from a re-analysis of the deposited data

How the results depend on the processing

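In the 17 alternatives LIF, LIFR, OSMR, IL6R, SOCS1 and PIM2 kept their direction and their call. The log2 difference ranged from -3.41 to -2.91 for LIF, from 3.54 to 4.12 for IL6R, from 1.09 to 1.57 for SOCS1 and from 1.59 to 1.84 for PIM2. IL6ST lost its call in 6 alternatives, 2 of them a pseudocount of 5 (adjusted p = 0.0560) and no filter on low values (0.1003). PIM1 gained a call in 9 and STAT3 in 1. SOCS3, never called, turned sign to -0.031 with TMM factors, -0.035 with DESeq2 size factors, -0.0145 with edgeR and -0.0205 with DESeq2, and ranged from -0.073 to 0.190 when 1 library was left out, below 0 without control replicate 1 or 2 or gefitinib replicate 2 or 3; the cause was not tested. Of the other genes of the lists, none of them called, CTF1 turned to -0.0021 and STAT4 to -0.13 with DESeq2. With 1 library left out, the log2 difference ranged from -0.038 to 0.32 for CTF1, from -0.16 to 0.066 for PIAS3 and from -0.19 to 0.64 for STAT4; the cause was not tested. The count of members called lower was 3, and 2 to 5 when 1 library was left out, with 5 without gefitinib replicate 1; 4 were higher throughout. The median log2 difference of all genes was 0.10 as deposited and 0.05 with TMM factors. Among the 6 pathway lists, that of STAT3 targets and that of receptor chains kept their counts within 1.5 times, and the other 4 did not. EBI3 also lost its call with TMM factors (adjusted p = 0.0556), DESeq2 size factors (0.0550), the replicate block (0.0808) and a pseudocount of 5 (0.0955).

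Libraries of the groups share only a replicate number: 1 of 3 same-numbered pairs correlated above 0.1 in its deviations, and 5 of 6 libraries correlated best with their own number. With the replicate block, 4438 genes were higher and 3552 lower, and 4 members were higher and 3 lower, with IL6ST at an adjusted p of 0.00368. Depth limits SOCS1, OSM, EBI3 and IL6, which rest on few reads.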
